A study of Arabidopsis thaliana with 4 samples.

Results

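Wall-associated kinases (WAKs) were compared between the ron3 mutant of Arabidopsis thaliana and its control, the accession Ler, in the shoot apex. The set was chosen by locus, as the gene probes of WAK1 (AT1G21250), WAK2 (AT1G21270), WAK3 (AT1G21240), WAK4 (AT1G21210), WAK5 (AT1G21230) and the WAK-like kinase WAKL10 (AT1G79680). All 6 genes were on the array, with 7 probes among 37478 gene probes, and they are 6 of 25665 loci with a probe. Of the 6, 4 passed the filter on dim probes and were tested with 19246 genes in all, while WAK4 and WAK5 gave no signal well above background.

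Each of 4 two-colour Agilent arrays (replicates a to d) held RNA of the ron3 mutant in one dye and RNA of the Ler control in the other. The plants of both genotypes were grown in vitro under the condition that the labels call LD, to growth stage 1.02. Ron3 carried Cy5 on arrays a and c and Cy3 on arrays b and d. The labels name no agent or treatment for either genotype and do not describe the ron3 lesion. They state that dyes were swapped and that the replication was biological. Which arrays shared RNA is left unsaid, so the p-values measure the spread between these arrays, part of which may be technical.

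WAKs are receptor-like kinases that span the plasma membrane. Their outer part binds pectin in the cell wall and their kinase part lies in the cytoplasm. In Arabidopsis they are known for a role in the expansion of young organs, with native pectin as ligand, and for a role in the response to pectin fragments, the oligogalacturonides, which are released when the wall is damaged. Transcripts of WAK1 are known to be induced by salicylic acid and by infection. WAK1 to WAK5 form a cluster on chromosome 1, and WAKL10 lies elsewhere on the same chromosome, next to RFO1. No probe, promoter or protein sequence is shown, since none was in the sources used here. The WAK genes resemble each other, and whether a transcript of one bound the probe of another was not tested.

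WAK1 and the brighter of 2 WAK2 probes were well above background in both genotypes on all 4 arrays, and both rose in ron3, by log2 ratios of 4.42 ± 0.17 and 1.70 ± 0.31 (SD, n = 4; limma, adjusted p = 0.000137 and 0.000581). Over all genes tested 69.8% changed, 37% rose and 32.8% fell, so a rise as such was common in this comparison. Both rose at least 2-fold, as did 6.02% of all genes tested, but the dimmer WAK2 probe did not. WAK1 and both WAK2 probes had log2 ratios above 0 on 4 of 4 arrays, as did 38.8% of all genes tested. WAK3 and WAKL10 also passed the test as rises, but in Ler they were well above background on 0 and 1 arrays, so they entered the test through ron3 alone. Their direction was thus largely set by the filter, and their values are given as a description.

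WAK1 encodes the founding member of the family, a pectin-binding receptor that can respond to oligogalacturonides. Its probe gave ron3 spot signals of 14404.5, 6207, 11980 and 10584 intensity units on arrays a, b, c and d. Ler gave 454, 557, 359 and 557, all well above background. The lowest ron3 signal thus lay above the highest Ler signal, also within each dye. The share of all genes with such a separation was not counted. After background correction and normalisation the log2 ratios of ron3 over Ler were 4.39, 4.20, 4.58 and 4.52 on arrays a to d. Their mean was 4.42 ± 0.17 (SD, n = 4), a 21.5-fold rise with a 95% interval of 18.8 to 24.5 (limma, adjusted p = 0.000137). WAK1 ranked 17 from the top among the 19246 genes by this ratio.

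WAK2 encodes a receptor whose loss is known to reduce cell expansion and the activity of vacuolar invertase. It had 2 probes, and the brighter one stood for the gene. On that probe ron3 gave 2589.5, 1357, 2270 and 1930 intensity units on arrays a to d, and Ler gave 572.5, 786, 537 and 524.5. Both genotypes were well above background on all 4 arrays. The ranges did not overlap, and the share of all genes for which this held was not counted. The log2 ratios were 1.60, 1.48, 1.57 and 2.17, with a mean of 1.70 ± 0.31 (SD, n = 4), a 3.26-fold rise with a 95% interval of 2.61 to 4.07 (limma, adjusted p = 0.000581). Array d stood apart as the highest.

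The dimmer WAK2 probe showed a much smaller difference. In ron3 it gave 149, 115.5, 195.5 and 121 units on arrays a to d, and in Ler 102.5, 139, 149.5 and 124, so the ranges overlapped. Ron3 was well above background on 4 arrays and Ler on 2. The log2 ratios were 0.18, 0.19, 0.09 and 0.33, with a mean of 0.20 ± 0.10 (SD, n = 4), which passed the threshold in a fit over all probes (limma, adjusted p = 0.0159). The brighter probe stood at 1.70 in that fit (adjusted p = 0.000572). The probes agreed in direction and not in size, and with the mean of both probes the log2 ratio of WAK2 was 0.95. Which part of the transcript each probe covers is not given in the sources used here.

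**Figure D1:**
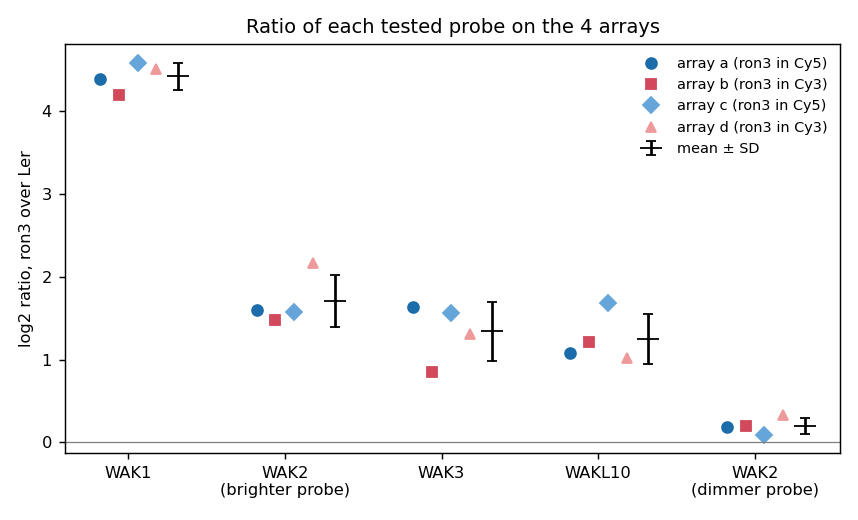
Log2 ratio of ron3 over Ler (y axis) for each tested probe of the WAK genes (x axis), with a point for each of the 4 arrays and the mean ± SD at the right of each set. WAK1 lies above 4 on every array, the brighter WAK2 probe, WAK3 and WAKL10 lie between 0.85 and 2.17, and the dimmer WAK2 probe lies between 0.09 and 0.33.

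WAK3 encodes another receptor kinase of the chromosome 1 cluster. Its spots were dim: ron3 gave 267, 109.5, 296 and 179 intensity units on arrays a to d, and Ler 75, 93.5, 100 and 100, over local backgrounds of 46 to 52 in Cy3 and 72 to 90 in Cy5 for all WAK spots. Ron3 was well above background on 4 arrays and Ler on 0, so the Ler level has only an upper bound. Compared with the dimmest signals that were well above background, the lower bound of the mean WAK3 fold over the 4 arrays was 2.15. It has no interval, array b lay below it at a log2 ratio of 0.85, and the filter kept WAK3 through ron3 alone. That bound compares means of log2 signals scaled between arrays (Aquantile). It sets ron3 against, per array, the higher of that dimmest signal and the Ler signal of the probe itself. The fitted log2 ratio was 1.34 ± 0.35 (SD, n = 4; limma, adjusted p = 0.000483), from 1.64, 0.85, 1.56 and 1.31 on arrays a to d. Arrays a and c, with ron3 in Cy5, lay above arrays b and d, and the fitted dye effect was 0.26 on the log2 scale in favour of that orientation (limma, unadjusted p = 0.035, adjusted p = 0.419).

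WAKL10 encodes a WAK-like kinase for which guanylate cyclase activity has been reported. It was dim as well, with ron3 signals of 294, 186, 327.5 and 145 intensity units on arrays a to d and Ler signals of 113, 125, 102.5 and 98. Ron3 was well above background on 4 arrays and Ler on 1, array a. The lowest ron3 signal was 145 and the highest Ler signal 125. The filter kept WAKL10 through ron3 alone, so this order was largely set by it and is given as a description. The log2 ratios were 1.08, 1.22, 1.69 and 1.02, with a mean of 1.25 ± 0.30 (SD, n = 4; limma, adjusted p = 0.00103). With Ler well above background on 1 of 4 arrays, the size of this ratio is uncertain.

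WAK4 and WAK5 encode the remaining kinases of the cluster, and an antisense construct of WAK4 is known to impair cell elongation. For WAK4, ron3 gave 129, 97, 146.5 and 79 intensity units on arrays a to d and Ler 96.5, 137, 122.5 and 95. For WAK5, ron3 gave 126, 99, 153 and 79.5 and Ler 94, 136.5, 130 and 98. Both probes lay well above background on 0 arrays in either genotype, and the signals of the genotypes overlapped. They allow no ratio, and a difference in these transcripts was not detectable here.

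**Figure D2:**
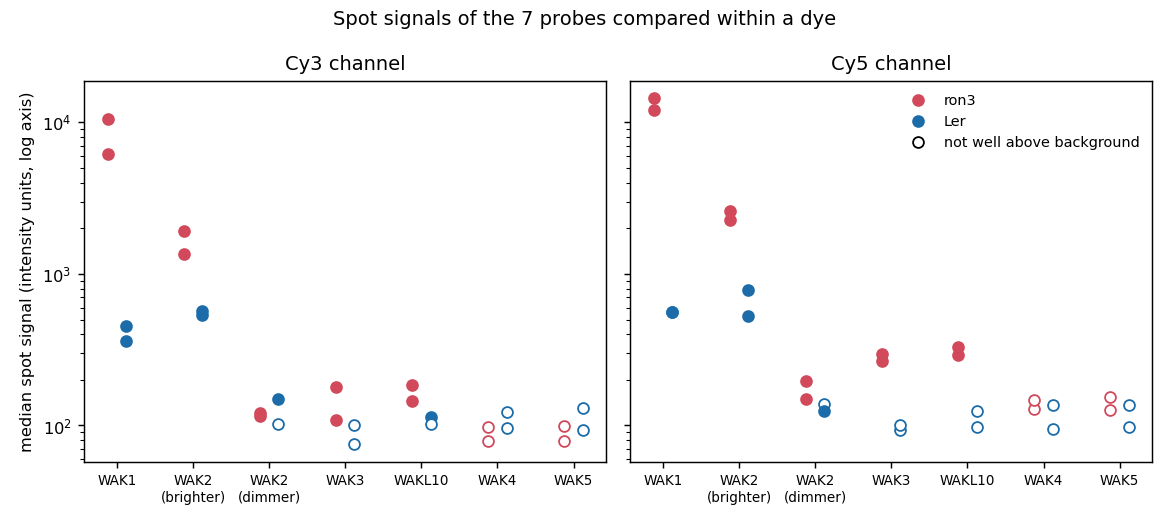
Deposited median spot signal in intensity units (log axis) of the 7 WAK probes, in the Cy3 channel on the left and the Cy5 channel on the right, with ron3 in red, Ler in blue and open circles for spots not well above background. Within each dye the ron3 spots of WAK1, the brighter WAK2 probe, WAK3 and WAKL10 all lie above the Ler spots, and all spots of WAK4 and WAK5 are open. The filter kept WAK3 and WAKL10 through ron3 alone, so their order was largely set by it. The share of all genes with such a separation was not counted.

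Among the genes measured in both genotypes, WAK1 stood above WAK2. Its log2 ratio exceeded that of the brighter WAK2 probe by 2.79, 2.72, 3.01 and 2.35 on arrays a to d, a mean difference of 2.72 ± 0.27 (SD, n = 4), well beyond the spread and above 0 on 4 of 4 arrays. WAK3 and WAKL10 were given no place in this order, since their Ler levels were mostly not well above background.

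The sizes for both dim genes depended on how the signals were processed. In the log ratio that the scanner software, Feature Extraction, computed, WAK3 had values of 4.47, 2.81, 4.06 and 3.55 for arrays a to d, a fitted log2 ratio of 3.72 (limma, adjusted p = 0.00112). WAKL10 had 2.17, 4.20, 4.28 and 4.26 in those values, a fitted log2 ratio of 3.73 (limma, adjusted p = 0.00364). That ratio has no offset of 50 added to each signal, and it differs in its background, spatial and dye correction as well. Which of these moved the values was not tested. For WAKL10 it was lowest on array a, where Ler was well above background. WAK1 and WAK2 moved little, to 4.69 and 1.78. WAK3 and WAKL10 thus lay above WAK2 in those values and below it in the values given above.

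**Figure D3:**
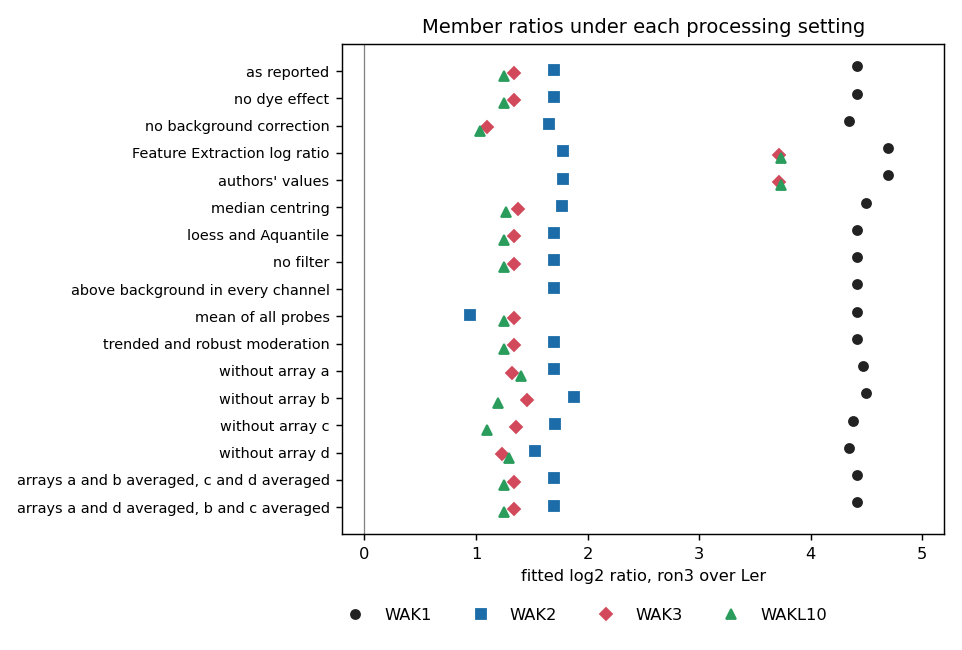
Fitted log2 ratio of ron3 over Ler (x axis) of WAK1, WAK2, WAK3 and WAKL10 under each processing setting (y axis). WAK1 keeps to between 4.34 and 4.69, WAK3 and WAKL10 move to 3.72 and 3.73 with the Feature Extraction log ratio, and WAK2 falls to 0.95 when its probes are averaged.

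The chromosome 1 neighbours of the WAK cluster moved both ways. Of 17 measured neighbours, 8 on each side and AT1G21245 within the cluster, 9 rose and 4 fell (limma, adjusted p below 0.05). Over all genes tested 69.8% changed, with 37% that rose and 32.8% that fell. Their median log2 ratio was 0.22, against 0.02 over all genes tested. The neighbour with the largest rise was EXT3, a gene for an extensin, a structural protein of the cell wall, at 2.43 ± 0.41 (SD, n = 4; adjusted p = 0.000564). Its log2 ratios were 2.11, 2.65, 2.91 and 2.07 on arrays a to d. The neighbour with the largest fall was AT1G21140, at −0.54 ± 0.43 (adjusted p = 0.00146). AT1G21280, next to WAK2, stood at 0.05 ± 0.03 and did not pass (adjusted p = 0.324), and AT1G21245, between WAK3 and WAK1, rose by 0.43 ± 0.32 (adjusted p = 0.031).

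**Figure D4:**
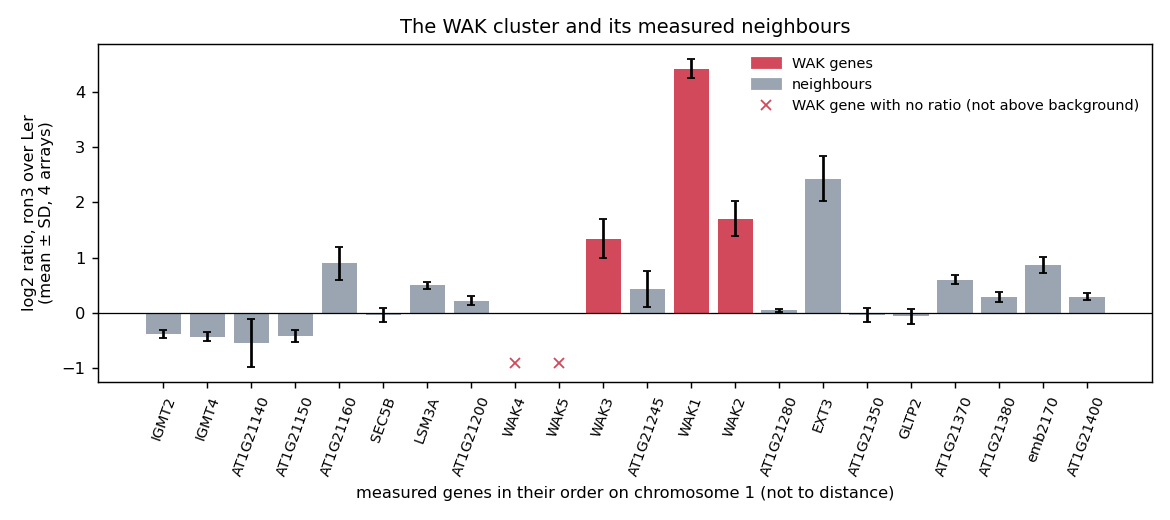
Mean log2 ratio of ron3 over Ler with its SD over 4 arrays (y axis) for the WAK cluster (red) and its measured neighbours (grey) in their order on chromosome 1, not drawn to distance. WAK3, WAK1 and WAK2 stand at 1.34, 4.42 and 1.70, EXT3 at 2.43, and crosses mark the places of WAK4 and WAK5, which have no ratio.

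A list of 20 further loci, of kinases related to the WAKs, was written from general knowledge. Earlier results of these data were known when it was written, so its counts are a description. Of its members 12 were tested, of which 7 rose, 0 fell and 5 did not pass (limma), where 37% of all genes tested rose and 32.8% fell. Their median log2 ratio was 0.33 against 0.02 over all genes tested. One of the rises, WAKL2, entered the test through ron3. With the Feature Extraction log ratio 6 rose and 3 fell. Over all 19246 genes tested in that fit 5998 rose and 7394 fell, so 44.8% of the genes called were rises. The reference table names 8 of the 20 as WAK-like, and 4 of these were tested. WAKL6 rose by 0.46 ± 0.10 (SD, n = 4; adjusted p = 0.00164), with 0.33, 0.44, 0.48 and 0.58 on arrays a to d. WAKL2 rose by 0.37 ± 0.22 (adjusted p = 0.024) and exceeded background clearly in Ler on 1 array only. Its call ended without array c (log2 ratio 0.26, adjusted p = 0.0868) and without array d (0.29, adjusted p = 0.0604).

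WAKL7 stood at −0.14 ± 0.29 (adjusted p = 0.151). RFO1, the WAK-like gene next to WAKL10, known for resistance to Fusarium, stood at −0.08 ± 0.07 (adjusted p = 0.124), with −0.14, 0.01, −0.12 and −0.05 on arrays a to d. With the Feature Extraction log ratio both passed as falls, at −0.55 and −0.13 (adjusted p = 0.0491 and 0.0448). AT1G19390, not named in the reference, also passed as a fall there, at −0.21 (adjusted p = 0.0238), against −0.03 as reported (adjusted p = 0.521). Of the 12 loci that the reference does not name, 8 were tested and 5 rose, against 37% of all genes tested. AT1G69730 rose most, 7.96-fold, with log2 ratios of 2.85 to 3.22 over the 4 arrays (adjusted p = 0.000137). AT1G16260 rose 3.21-fold, with 1.70, 1.58, 1.77 and 1.68 (adjusted p = 0.000152), and AT1G25390 rose by 0.63 ± 0.02 (adjusted p = 0.000402). AT2G23450 rose by 0.85 ± 0.24 (adjusted p = 0.00194) and AT5G66790 by 0.29 ± 0.16 (adjusted p = 0.0234). The AT5G66790 call ended with the Feature Extraction log ratio and the authors' values (adjusted p = 0.0559 and 0.056). It also ended without array c and without array d (adjusted p = 0.087 and 0.0626). AT3G53840 and AT4G31110 did not pass (adjusted p = 0.157 and 0.459).

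Genes linked to WAK function were taken from a second list of 13, written from general knowledge, also with earlier results of these data known. All 13 were tested, of which 6 rose, 4 fell and 3 did not pass (limma), shares near the 37% and 32.8% of all genes tested that rose and fell. Their median log2 ratio was 0.06 against 0.02 over all genes tested. Among extracellular partners, GRP-3, a glycine-rich protein that binds the outer part of WAK1, stood at −0.16 ± 0.21 (SD, n = 4; adjusted p = 0.139), and passed as a fall with the Feature Extraction log ratio and with the authors' values (−0.25, adjusted p = 0.0222 in each). The pectin methylesterase PME3, which removes methyl groups from pectin, fell by 0.19 ± 0.07 (adjusted p = 0.0208), a call that ended with the Feature Extraction log ratio and the authors' values (−0.12, adjusted p = 0.102 in each), with median centring (−0.20, adjusted p = 0.0601), without array a (−0.15, adjusted p = 0.124) and without array b (−0.17, adjusted p = 0.0547). The polygalacturonase inhibitors PGIP1 and PGIP2, which slow the breakdown of pectin by microbial enzymes, went opposite ways: PGIP1 rose by 0.56 ± 0.22 (adjusted p = 0.0055) and PGIP2 fell by 0.57 ± 0.22 (adjusted p = 0.00381). They are adjacent and similar genes whose probes may share transcripts, so their separate values are uncertain. AT4G20830, unnamed in the reference, rose by 1.22 ± 0.09 (adjusted p = 0.000245) on its brightest probe. With the mean of its probes it rose by 0.66 (adjusted p = 0.000476), so the size depended on the probe. The receptor kinase FER, which also binds pectin, stood at 0.06 ± 0.13 (adjusted p = 0.355).

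Inside the cell, KAPP, a phosphatase found in a complex with WAK1, fell by 0.22 ± 0.13 (adjusted p = 0.00565), a call that ended with median centring (−0.15, adjusted p = 0.109) and without array c (−0.22, adjusted p = 0.0509). The MAP kinase gene MPK3, which acts downstream of oligogalacturonides, rose by 1.02 ± 0.20 (adjusted p = 0.000907), with 0.88, 0.81, 1.19 and 1.18 on arrays a to d. MPK6, a second MAP kinase of that response, stood at 0.03 ± 0.03 (adjusted p = 0.551). ATBETAFRUCT4, a vacuolar invertase, fell by 0.43 ± 0.16 (adjusted p = 0.00412).

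The list also held PAD4, EDS1 and NPR1, known regulators in salicylic acid signalling. PAD4 rose 14.6-fold with log2 ratios of 3.81, 3.10, 4.01 and 4.55 on arrays a to d (limma, adjusted p = 0.000483). EDS1, its partner, rose by 1.95 ± 0.45 (adjusted p = 0.00119), a value that is uncertain because Arabidopsis carries a near-identical copy of this gene. NPR1, a salicylic acid receptor on which the induction of WAK1 is known to depend, rose by 0.88 ± 0.09 (adjusted p = 0.000306). PAD4 and EDS1 were highest on array d, as was the brighter WAK2 probe, while WAK1 was highest on array c.

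**Figure D5:**
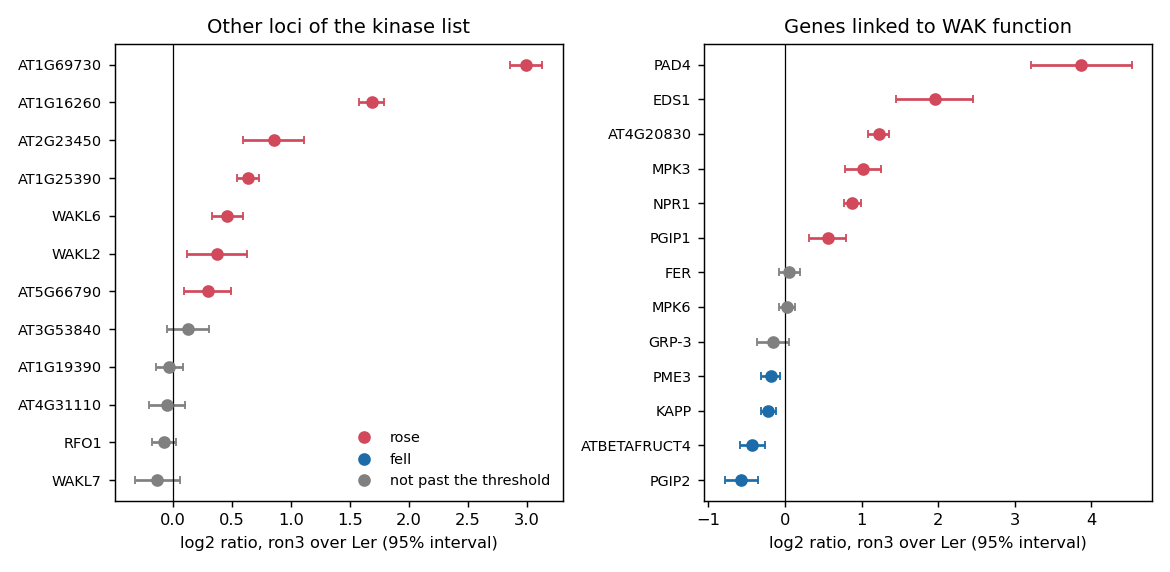
Fitted log2 ratio of ron3 over Ler with its 95% interval (x axis) for the tested loci of the kinase family list (left) and the list of genes linked to WAK function (right), coloured by whether the gene rose, fell or did not pass the threshold. On the left 7 of 12 rose and 0 fell, and on the right 6 of 13 rose, led by PAD4 at 3.87, and 4 fell.

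The genes whose ratios lay closest to those of WAK1 were found by Euclidean distance over the 4 arrays, which favours genes with a rise of the same size. ABCG40, an ABC transporter, was closest at a distance of 0.28, with log2 ratios of 4.51, 4.12, 4.62 and 4.28 on arrays a to d. AT3G28510 followed at 0.52, AT3G47480 and MSRB8, a methionine sulfoxide reductase, at 0.54 each, and ANK at 0.56. In Ler, MSRB8 exceeded background clearly on 2 of 4 arrays, and ABCG40, AT3G28510, AT3G47480 and ANK on all 4.

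Across the series, pairs of arrays correlated at r = 0.888 to 0.951 over genes, which are not independent replicates. Between 55.5% and 59.5% of gene probes were well above background in ron3 and between 54.2% and 57% in Ler. SIC (AT4G24500), taken from general knowledge to be RON3, had a log2 ratio of −2.30 ± 0.08 (SD, n = 4; limma, adjusted p = 0.000147), with its probe not placed relative to the lesion. The shoot apex markers STM and ANT were well above background on all 4 arrays in both genotypes, and WUS and CLV3 on 0 in either. STM rose by 0.40 ± 0.12 (adjusted p = 0.00326), ANT fell by 0.83 ± 0.12 (adjusted p = 0.000403), the vascular marker XCP1 fell by 1.04 ± 0.33 (adjusted p = 0.00282), the trichome marker MYB0 fell by 0.71 ± 0.04 (adjusted p = 0.000362) and the leaf gene RBCS1A fell by 0.17 ± 0.08 (adjusted p = 0.0184). All 3 root markers (CASP1, IRT1 and SHV2) rose, with mean log2 ratios of 1.13, 1.17, 1.18 and 0.40 on arrays a to d. In Ler, CASP1, IRT1 and SHV2 were well above background on 4, 3 and 2 arrays, so the size of that mean is uncertain. The part of root tissue in the WAK values was not tested. On array d, where the root markers were lowest, WAK1, WAK2, WAK3 and WAKL10 had log2 ratios of 4.52, 2.17, 1.31 and 1.02. In tissue made of many cells, more cells that express a WAK gene and more WAK transcript per cell cannot be told apart.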

How the data were processed

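RNA of ron3 and Ler was hybridised in pairs to 4 arrays on 1 slide. Per the labels' protocols, 1 µg was amplified and labelled together with 10 spike-in transcripts. Agilent Feature Extraction 10.1.1.1 read the spots, per the file headers and the submitters' processing notes. For each spot and its local surroundings the deposited files give the median brightness, an intensity. They also give processed signals, an intensity from which the software had subtracted background and removed spatial and dye trends, and their log10 ratio of Cy5 over Cy3, per the file headers. Flags of other kinds, 0 or 1 per spot, were deposited beside them. The authors' value table is the log2 of the processed ratio, already turned to ron3 over Ler and not centred. Its medians were −0.01, −0.12, 0.01 and −0.17 for arrays a, b, c and d. A genome build is not given in the sources used here.

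Median signals were corrected with normexp (offset 50) and normalised by loess within each array, controls at weight 0, using limma 3.58.1 and R 4.3.3. A probe was kept if 1 genotype was well above background on at least 2 of 4 arrays and at least 3 spots were unflagged. The brightest kept probe represented a gene. The limma model held the ratio and, per probe, a dye term, which left 2 residual and 2.45 prior degrees of freedom. Two-sided p-values were adjusted by Benjamini-Hochberg over 19246 genes, at a threshold of 0.05, and the fit was tested on simulated data. Printed SDs span the 4 arrays and still contain the dye term. That term passed for 0 genes (limma), with 2208 at an unadjusted p under 0.05. No WAK spot was saturated or carried an outlier flag. The number of arrays limits the precision.

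Names and gene order came from a reference table of assembly TAIR10.1 that held 19135 of the tested genes, 8662 of them with a symbol. The members and lists were chosen with earlier results of these data known. Named were the 6 members, the tested genes of both lists (the 4 with the smallest adjusted p in each, with values), the neighbours with the largest rise and fall, and the 5 genes closest to WAK1. The other tested list genes and the neighbours AT1G21280 and AT1G21245 were given values after these had been seen. Alternatives dropped the dye term or the background correction, took the software's log ratio or the authors' values, used median centring or Aquantile scaling, changed the filter, averaged probes, changed the moderation, left out each array, or averaged arrays in pairs.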

Additional observations from a re-analysis of the deposited data

Results flagged for a closer look

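Genes were checked for an array far from the other arrays, by the gap to the nearest value over the whole range against Dixon's 95% critical value. The check took the tested WAK genes, both lists, all measured neighbours, the genes closest to WAK1, the tested markers and SIC. Of 60 genes checked 4 passed it, where chance flags about 1 in 20. WAK2 stood at 2.17 on array d against 1.48 to 1.60 on the others. AT1G25390 stood at 0.60 on array a against 0.64 to 0.65. The root marker IRT1 stood at 0.67 on array d against 1.61 to 1.73. The trichome marker MYB0 stood at −0.66 on array c against −0.74 to −0.72.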

How the results depend on the processing

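WAK1, WAK2, WAK3 and WAKL10 kept their direction and stayed past the threshold (limma) in all 62 alternative values computed for them, where WAK3 and WAKL10 had entered the test through ron3 alone. Leaving out each array in turn gave log2 ratios of 4.34 to 4.50 for WAK1, 1.53 to 1.88 for WAK2, 1.23 to 1.46 for WAK3 and 1.10 to 1.40 for WAKL10, with adjusted p of 6.60e-05 to 0.00663. The other settings gave 4.34 to 4.69, 0.95 to 1.78, 1.10 to 3.72 and 1.04 to 3.73, with adjusted p of 3.78e-05 to 0.00365 for WAK2, WAK3 and WAKL10. The lowest WAK2 value came with the mean of its probes, and the highest values of WAK3 and WAKL10 with the Feature Extraction log ratio and the authors' values. When every channel had to be above background, WAK3 and WAKL10 were not tested.

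Of the kinase family list 0 fell as reported, against 3 with the Feature Extraction log ratio, 3 with the authors' values and 0 to 1 when 1 array was left out. The 1 was WAKL7 without array d, at −0.21 (adjusted p = 0.0341). Rises in that list numbered 7 as reported and 5 to 8 when 1 array was left out. Of the genes linked to WAK function 4 fell as reported and 2 with median centring. MPK6 turned to −0.01 with the Feature Extraction log ratio and with the authors' values. AT4G31110, at −0.05 as reported, lay between −0.12 and 0.02 when 1 array was left out. Of 399 alternative values for the genes of both lists 26 changed their side of the threshold or their sign, and the cause was not tested. Genes changed over the whole table numbered 13434 as reported and 10031 to 13237 when 1 array was left out. Genes changed at least 2-fold numbered 1552 as reported and 2559 with the Feature Extraction log ratio. Low signal over background limits the values of WAK3, WAK4, WAK5 and WAKL10. Each ratio already pairs ron3 with Ler on the same array. Pairing between arrays was not modelled, since the labels do not tell which arrays shared RNA. Averaging arrays in pairs, either way, changed none of the WAK calls.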
